A study of Mus musculus with 6 samples.

Results

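DNA replication and S phase genes were compared between the C57BL/6 mouse mammary tumour line E0771 and E0771-HML2, a population selected from it for metastasis to the lung. The 37 genes encode the proteins that load and start the replicative helicase, copy and join the strands, supply deoxynucleotides, assemble chromatin behind the fork and switch cells from G1 into S phase. They were listed by symbol and not by expression. For 36 of them the array annotation gave at least 1 probe set of their own, 81 probe sets in all, out of 18194 genes so represented, and the brightest probe set, by mean log2 level over all arrays, stood for each gene. Chaf1a was not analysed here. All 36 had a mean signal above the minimum of 100 and were among the 9362 genes tested.

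The study compared 3 cultures of unselected parental cells with 3 cultures of HML2 cells, with 1 Affymetrix mouse GeneChip array per culture. HML2 cells are a second-generation population: E0771 cells were injected into the fat pad of mice of their own strain, C57BL/6, those that had reached the lung were recovered, and the selection was done again. Cells of both groups grew in culture for 3 days in medium with 10% serum and received no other treatment. The labels call the cultures biological replicates but do not say whether the HML2 cultures trace to separate animals or selections, so a p-value here reflects only how much these cultures varied. Total RNA of a whole culture was measured, so a smaller share of cells in S phase and less messenger RNA per cell cannot be told apart.

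Replication begins in G1, when the initiator proteins Cdc6 and Cdt1 place the ring-shaped MCM2-7 helicase on chromatin. In S phase Cdc45 and the GINS complex join the ring and turn it into the active helicase, after which polymerase alpha with its primase starts each strand, the clamp Pcna holds the main polymerases, and Fen1 and Lig1 process and join the fragments. Most of these genes are transcribed in waves by E2F factors once cyclin-dependent kinases release them from retinoblastoma proteins, which is why their messenger RNAs are widely used as a gauge of how many cells of a culture are cycling.

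Promoter stretches with E2F motifs are shown for members whose differences had either sign. Of those shown, Mcm5 and Mcm6 had no call in the fit given first below (limma, adjusted p = 0.54 and 0.094). In RefSeq promoter sequences of assembly GRCm38.p6, 300 bases each (250 before and 50 after a transcription start), 4 spellings were searched on both strands, TTTCGCGC, TTTGGCGC, TTTCCCGC and TTTGCCGC, with overlapping matches counted. At least 1 match stood in 2.26% of all 32851 promoters, in 4.25% of those of tested genes and in 33.3% of the 36 promoters of members. The table had entries for 31 of the 37 listed genes, and 12 of these held a match. Capitals mark the matches in the stretches below, each read 5′ to 3′ on the gene's own strand and, for the first 4, ending upstream of the start.
Mcm6, chr1:128359706-128359855, minus strand: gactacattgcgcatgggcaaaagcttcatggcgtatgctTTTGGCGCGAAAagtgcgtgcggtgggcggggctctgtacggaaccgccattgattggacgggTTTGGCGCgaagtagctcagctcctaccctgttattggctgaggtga
Mcm5, chr8:75109316-75109407, plus strand: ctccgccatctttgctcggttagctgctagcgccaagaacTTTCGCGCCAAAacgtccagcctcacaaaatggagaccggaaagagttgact
Pola1, chrX:93632246-93632333, minus strand: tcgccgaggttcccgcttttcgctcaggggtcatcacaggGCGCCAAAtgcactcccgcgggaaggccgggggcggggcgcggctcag
Gins3, chr8:95633478-95633558, plus strand: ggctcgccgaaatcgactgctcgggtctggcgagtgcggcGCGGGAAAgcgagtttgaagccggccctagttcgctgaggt
Cdt1, chr8:122568035-122568064, plus strand: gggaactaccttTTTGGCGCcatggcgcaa
Mcm6 held 3 matches, of which a pair overlaps, and Mcm5 held 2 that overlap. The Cdt1 match lies after the transcription start, 33 bases in. Of the members with a promoter entry, 2 of 2 that were called higher in HML2 cells and 1 of 5 that were called lower held a match. Among tested members that were not called, 9 of 23 held a match. A match was thus found in members of either direction and in members without a call. A match describes the letters of the sequence and says nothing of binding.

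The deposited signals had been scaled to a trimmed mean of 500 on each of the 6 arrays, and 39.7% to 41.6% of probe sets reached 100. Ratios of 3′ to 5′ signal were 0.770 to 0.816 for Gapdh and 1.36 to 1.53 for beta-actin. Among 5 epithelial markers the mean signal of Krt8 was 1095 ± 60.3 for parental and 4175 ± 649.8 for HML2 cultures (SD, n = 3), that of Epcam 133 ± 24.5 and 83.5 ± 15.0, and Krt18, Cdh1 and Krt7 reached 100.5 at most on any array. The leukocyte marker Ptprc read 0.994 to 19.8, in or below the range of 1.97 to 36.2 of bacterial control probe sets, and the summed signals of 6 leukocyte markers (brightest Lyz2 and Csf1r) were 390.02 to 421 in parental and 211 to 444 in HML2 cells. Sums of 4 endothelial markers (brightest Kdr and Cdh5) were 71.2 to 161 and 109 to 158, and of 5 lung epithelial markers (brightest Sftpb and Sftpc) 123 to 209.99 and 138 to 256. Summed signals of 6 fibroblast markers were 2593 to 4563 in parental and 1215 to 2162 in HML2 cells. Only Pdgfra and Pdgfrb had a mean over both groups of at least 100. Mean signals of Col1a1, Col1a2, Dcn and Lum were 23.2 to 110 in parental and 15.7 to 66.9 in HML2 cells. The part of the fibroblast markers in any difference below was not tested.

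No difference was called for most replication genes, with a minority lower and a few higher in HML2 cells. Cdc45, Chaf1b, Mcm4, Gins2, Ccne1, Pola1 and Tk1 were lower, by 1.34-fold to 1.71-fold, and Cdt1 and Gins3 were higher, by 1.42-fold and 1.52-fold. All differences are HML2 minus parental on the log2(signal + 50) scale, and a gene was called at a Benjamini-Hochberg adjusted p below 0.05 over all tested genes (limma). The 7 lower and 2 higher members make up 25% of the 36, against 27.2% of all tested genes that were called, 14.9% lower and 12.3% higher. The groups did not overlap for 10 members lower and 2 members higher in HML2 cells, which is 33.3% of the members and compares with 44.4% of all tested genes, 23.8% lower and 20.6% higher. The median difference of the members was -0.13 beside -0.02 for all tested genes, and 27 of the 36 (75%) had a negative difference, against 51.7% of all tested genes (27 members after quantile normalization, 23 after median centring).

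**Figure D1:**
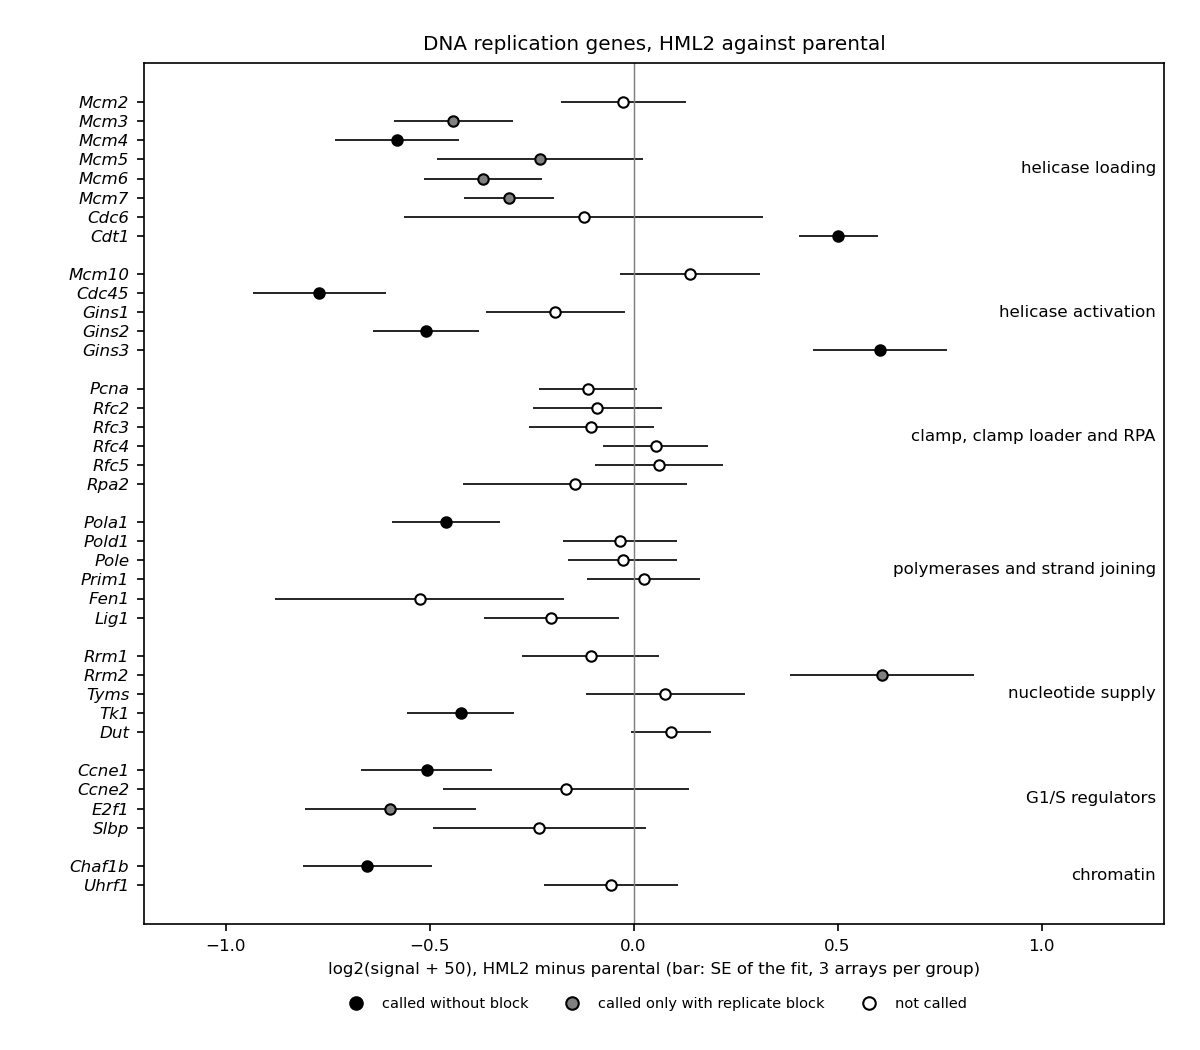
Difference between HML2 and parental cells for 36 DNA replication genes in order of their roles, on the log2(signal + 50) scale, with bars of 1 SE from the fit to 3 arrays per group. Black points are the 9 genes called without the replicate number, grey points the 6 called with it as a block but not without, and white points the genes not called in either fit.

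The replicate 1 arrays of both groups stood apart for these genes. Within the parental group, 28 of the 36 members had their lowest value on replicate 1, and within the HML2 group 29 did. Relative to the mean of the own group, the members' median was -0.18 on parental replicate 1 and -0.24 on HML2 replicate 1, and it was 0.14 and 0.05 on the other parental arrays and 0.15 and 0.07 on the other HML2 arrays. The median over all tested genes stayed within -0.01 to 0.01 on every array. Fen1, the flap nuclease of lagging strand synthesis, is an example among members not called: its signals were 3397, 4510.0 and 4059 in parental and 1381, 4044 and 3655 in HML2 replicates 1 to 3. Its difference of -0.52 became -0.04 without HML2 replicate 1.

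Arrays with the same replicate number deviated from their group means together, with correlations across all tested genes of 0.45, 0.34 and 0.24 for replicates 1, 2 and 3, so the number was also used as a block. With the block 12 members were lower and 3 higher, which is 41.7% of the members and stands beside 37.4% of all tested genes called in that fit, 19.6% lower and 17.8% higher. The 9 members called without the block remained called, and Mcm3, Mcm5, Mcm6, Mcm7 and E2f1 (lower) and Rrm2 (higher) were added. When both replicate 1 arrays were left out, an alternative chosen after seeing the data, 11 members were lower and 3 higher. That was 38.9% of the members, against 37.8% of all tested genes called in that fit. With both left out the members' median was -0.06. It was 0.01 when only HML2 replicate 1 was left out, a fit that kept the low parental replicate 1. Between arrays of the same number the members' median difference was -0.24, -0.09 and -0.01 for replicates 1 to 3. Over all tested genes it was -0.04, 0.01 and -0.02. Without parental replicate 3, 0 members were lower and 1 was higher in the limma fit (9 and 3 at an unadjusted p below 0.05), and 14.8% of all tested genes were called. The lower count was 2 without parental replicate 2 or HML2 replicate 3, and 4 without HML2 replicate 2. Of all tested genes, 11.5%, 10.2% and 11.3% were called lower in these fits, in the same order.

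**Figure D2:**
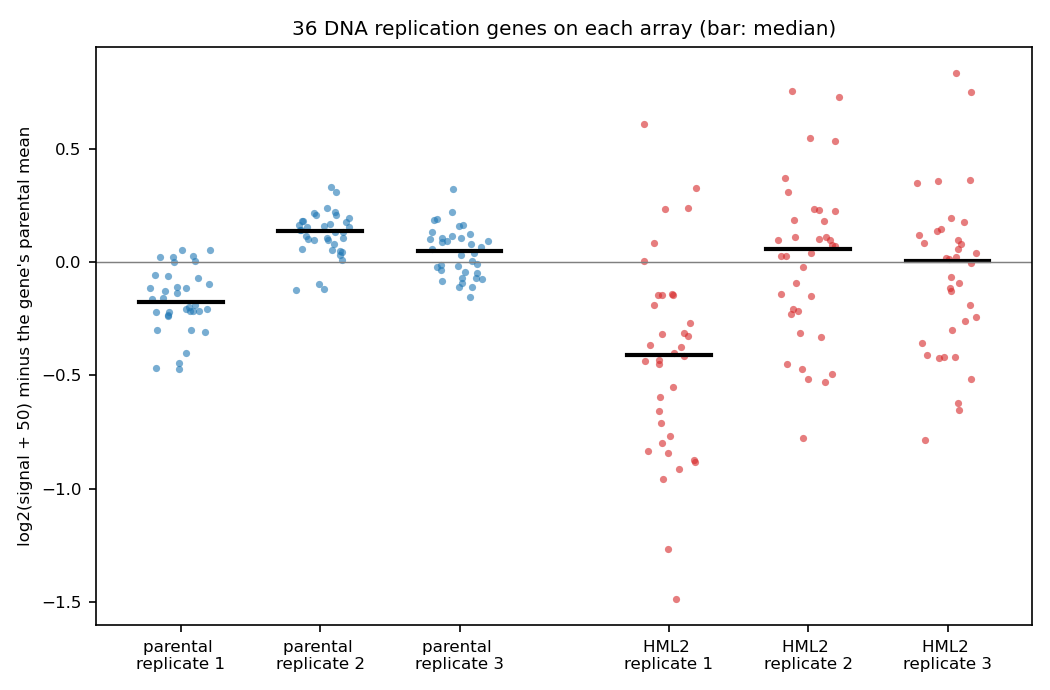
Each point is 1 of 36 DNA replication genes on 1 array, as log2(signal + 50) minus that gene's mean over the 3 parental arrays, and black bars are medians. Medians were -0.18, 0.14 and 0.05 on the parental arrays and -0.41, 0.06 and 0.01 on the HML2 arrays, lowest on replicate 1 of either group.

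In the MCM2-7 ring Mcm4 fell, Mcm3, Mcm5, Mcm6 and Mcm7 missed the threshold without the block and were lower with it, and Mcm2 was called in neither fit. Mcm4 had signals of 8198, 10054 and 10451 in parental and 5168, 6964 and 7118 in HML2 replicates 1 to 3. Every HML2 array lay below every parental array, and the difference was -0.58 ± 0.15 (SE, adjusted p = 0.024). Leaving out parental replicate 2 (-0.54) or 3 (-0.51), or averaging its probe sets (-0.51), ended the call. Mcm3 read 4945, 5921 and 5361 against 3282, 4668 and 4048, again without overlap, for a difference of -0.44 ± 0.15 that missed the threshold without the block (adjusted p = 0.055) and passed it with the block (adjusted p = 0.0081). It was also called without HML2 replicate 2 (-0.56) and with probe sets averaged (-0.46). Without the block, quantile normalization and array weights each called Mcm3 (-0.49 and -0.37), Mcm6 (-0.44 and -0.41) and Mcm7 (-0.36 and -0.23), as did leaving out both replicate 1 arrays.

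Mcm7 read 14226, 17574 and 15280.4 against 11434, 13352 and 13210.3, and its groups did not overlap either (-0.31 ± 0.11; adjusted p = 0.073, and 0.0075 with the block). Mcm6 read 6182, 7365 and 8223 against 4753, 6210.1 and 5847, where HML2 replicate 2 reached just above parental replicate 1 (-0.37 ± 0.14; adjusted p = 0.094, and 0.012 with the block). For Mcm3, Mcm4, Mcm5, Mcm6 and Mcm7 the HML2 array was lower than the parental array of each replicate number. That held for 15 of the 36 members and for 34% of all tested genes. Mcm5, with 9715, 14593 and 14995 against 7381, 13885 and 12833, differed more between replicate 1 and the others than between the groups (-0.23 ± 0.25; adjusted p = 0.54, and 0.049 with the block). Without HML2 replicate 1 the difference of Mcm5 was 0.05. Mcm2 stood at 2806 ± 181 in parental and 2785 in HML2 cells on average, a difference of -0.03 with a 95% interval of -0.38 to 0.32.

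Several probe sets of the MCM genes passed the signal filter, 2 each for Mcm2, Mcm4 and Mcm6, 3 for Mcm5, 4 for Mcm7 and 5 for Mcm3. All had negative differences. The other 4 of Mcm3 ranged from -0.58 to -0.28, and the other 3 of Mcm7 from -0.38 to -0.35. The second of Mcm4 gave -0.44 with overlapping groups. Those of Mcm6 and Mcm2 gave -0.16 and -0.15, and the others of Mcm5 gave -0.25 and -0.87.

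Of the helicase loaders, Cdt1 rose and Cdc6 was not called. Cdt1, which brings the MCM ring to origins and is destroyed once S phase begins, had signals of 12851, 13114 and 12026 in parental and 19353, 18378 and 16248 in HML2 cells. All HML2 arrays lay above all parental arrays, with a difference of 0.50 ± 0.10 (adjusted p = 0.0063), and a second probe set gave 0.64. Cdt1 was the only member called under all 17 alternatives, with differences of 0.44 to 0.57. Cdc6, the other loader, read 764 to 1346 in parental and 410.0 to 1572 in HML2 cells, and the 95% interval of its difference was wide, from -1.13 to 0.88. The low end was HML2 replicate 1, without which the difference was 0.45 in place of -0.12.

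Of the 5 members that activate the helicase, Cdc45 and Gins2 fell, Gins3 rose, and Gins1 and Mcm10 were not called. Cdc45, the factor that ties the ring to GINS at the fork, had the largest decrease of any member, from 1224, 1763 and 1624 in parental to 800.2, 866 and 949.9 in HML2 replicates 1 to 3. The groups were separate by a margin and the difference was -0.77 ± 0.16 (adjusted p = 0.0095). The call held in 16 of 17 alternatives and failed without parental replicate 3 (-0.72, adjusted p = 0.052). Gins2, a GINS subunit, fell from 1385, 1219.8 and 1396 to 987, 931 and 849 (-0.51 ± 0.13, adjusted p = 0.021), and a second probe set gave -0.74. Leaving out parental replicate 1 (-0.48) or 3 (-0.48) or HML2 replicate 2 (-0.52) or 3 (-0.45) ended the call of Gins2.

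Gins3, another subunit of the same 4-subunit complex, rose from 339, 372 and 398 to 476, 646 and 657 (0.60 ± 0.17, adjusted p = 0.028). Its second probe set gave 0.48, so the opposite signs of Gins2 and Gins3 were each seen with 2 probe sets. Gins3 was not called when parental replicate 1 (0.55), 2 (0.61) or 3 (0.65) or HML2 replicate 2 (0.54) or 3 (0.53) was left out. Gins1 read 3156, 3397 and 2919 against 2136, 3385 and 2885, where HML2 replicate 1 lay well below the parental range and replicate 3 just below it (-0.19 ± 0.17, adjusted p = 0.44). Gins4, the remaining GINS gene, was in a related list and not called (-0.22, limma adjusted p = 0.18), although its HML2 arrays all lay below the parental ones. Mcm10, a scaffold for helicase activation, differed by 0.14 with an interval of -0.25 to 0.53.

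**Figure D3:**
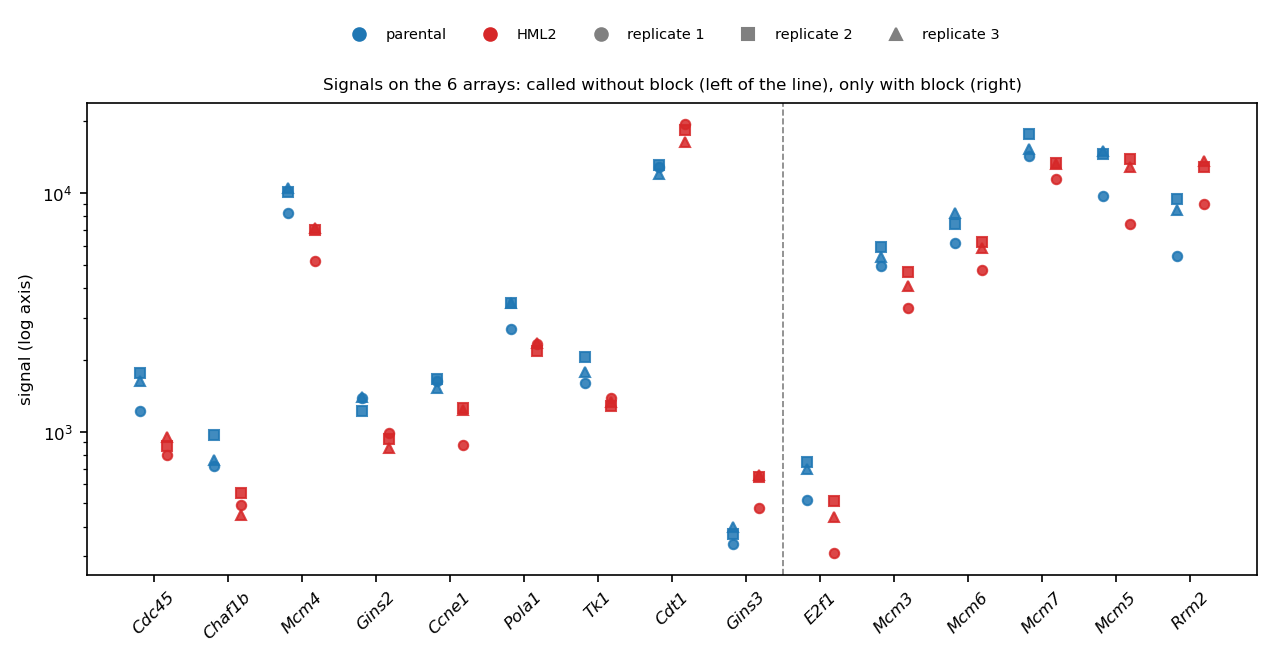
Signals on a log axis for the 15 DNA replication genes called without the replicate number (left of the dashed line) or with it as a block but not without (right), with blue for parental and red for HML2 arrays and 1 symbol per replicate number. Cdt1, Gins3 and Rrm2 lie higher in HML2 cells and the other 12 lower. Circles (replicate 1) lie lowest in both groups for Cdc45, Mcm4 and Gins3 and for all genes right of the line.

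Of the 6 members for the sliding clamp, its loader and RPA, 0 were called (limma, and 0 at an unadjusted p below 0.05). Over all tested genes 27.2% were called. RPA was represented here by Rpa2 only. In a related list below, Rpa1 was lower (-0.49) and Rpa3 (0.24) was not called. Pcna, the clamp on which the main polymerases ride, had signals of 20689, 26034 and 20738 in parental and 18534, 22794 and 20969 in HML2 cells. The groups overlapped, and the difference of -0.11 had a 95% interval of -0.38 to 0.16. The clamp loader genes Rfc2, Rfc3, Rfc4 and Rfc5 had differences of -0.10 to 0.06. Rpa2, a subunit of the single-strand binding protein, differed by -0.14, with its lowest signal of 1124 on HML2 replicate 1 against 2205 and 2562 on the other HML2 arrays. 

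Among polymerase and strand-joining genes 1 of 6 was called (16.7%), against 27.2% of all tested genes. Pola1, the catalytic subunit of the polymerase that starts each strand, fell from 2678, 3437 and 3438 to 2335, 2179 and 2352 (-0.46 ± 0.13, adjusted p = 0.034), with all HML2 arrays below all parental arrays. Pola1 missed the threshold when parental replicate 2 (-0.40) or 3 (-0.40) or HML2 replicate 2 (-0.43) or 3 (-0.48) was left out, and with median centring (-0.40). Prim1, the primase subunit that works with it, read 3171, 4026 and 4073 against 3371, 4003 and 4061, nearly the same on the array of each number (0.02, interval -0.29 to 0.34). Pold1 and Pole, catalytic subunits of the main polymerases, differed by -0.03 each, and the ligase gene Lig1 by -0.20 (adjusted p = 0.40).

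Of the nucleotide supply genes, Tk1 fell, and Rrm2 missed the threshold without the block and was higher with it. Tk1, the thymidine kinase of the salvage route, fell from 1601, 2042 and 1780.3 to 1375, 1283 and 1329.8 (-0.42 ± 0.13, adjusted p = 0.043), and its groups did not overlap. The call of Tk1 ended when parental replicate 2 (-0.33) or 3 (-0.43) or HML2 replicate 2 (-0.40) or 3 (-0.42) was left out, and with quantile normalization (-0.40) or median centring (-0.36). Rrm2, the regulated subunit of ribonucleotide reductase, read 5459, 9445 and 8504 in parental and 8951, 12870.1 and 13602 in HML2 cells. HML2 replicate 1 fell between parental replicates, yet the HML2 array was higher than the parental array of each number, by 0.71, 0.44 and 0.67. A higher HML2 array at each number was seen for 31.4% of all tested genes.

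The difference of Rrm2 was 0.61 ± 0.23, which missed the threshold without the block (adjusted p = 0.078) and passed it with the block (adjusted p = 0.0011). Rrm2 was called without HML2 replicate 1 (0.80, adjusted p = 0.013), without both replicate 1 arrays (0.56) and with array weights (0.69), whereas without parental replicate 1 its difference was 0.37 (adjusted p = 0.21). Its 2 other probe sets gave 0.76 and 0.96. The large subunit gene Rrm1 did not move with it (-0.11, interval -0.49 to 0.28). Dut, which clears dUTP, differed by 0.09 on its representative probe set, with an interval of -0.13 to 0.31, whereas a dimmer probe set gave -0.56. Tyms, the thymidylate synthase gene, had signals of 94.3 to 137 on its chosen probe set, near the filter.

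The 4 members grouped as G1/S regulators, with Slbp counted among them, had negative differences on their representative probe sets. Of all tested genes 51.7% were negative. In this group 1 of 4 was called (25%), against 27.2% of all tested genes. Ccne1, cyclin E1, read 1621, 1652 and 1519 in parental and 875, 1260.3 and 1235 in HML2 cells (-0.51 ± 0.16, adjusted p = 0.047). The groups did not overlap on that probe set, whereas a second one, at -0.25, had overlapping groups. Ccne1 was called in 7 of 17 alternatives, and it missed the threshold when any array but HML2 replicate 1 was left out, with differences of -0.50, -0.48 and -0.54 without parental replicates 1 to 3 and -0.59 and -0.58 without HML2 replicates 2 and 3. With array weights or without both replicate 1 arrays it was called at -0.33. E2f1, the activating transcription factor, read 516, 747 and 699 against 309, 510.1 and 437, with separate groups (-0.60 ± 0.21; adjusted p = 0.067, and 0.0098 with the block). E2f1 was also called with array weights (-0.55), with probe sets averaged (-0.61) and without both replicate 1 arrays (-0.57). A second probe set of E2f1 gave -0.62. Ccne2, the other cyclin E gene, differed by -0.17 (adjusted p = 0.72). Slbp, which binds histone messenger RNA, read 6926, 8560 and 8610.5 against 4213, 9086 and 8216, so that HML2 replicate 1 alone was low (-0.23, adjusted p = 0.55; 0.11 without that array).

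Of the chromatin genes, Chaf1b fell and Uhrf1 gave no call. Chaf1b, a subunit of the chaperone that places histones on new DNA, went from 718, 963 and 761 to 494, 551 and 447 (-0.65 ± 0.16, adjusted p = 0.017), again without overlap. Chaf1b was not called when parental replicate 2 (-0.53) or 3 (-0.69) or HML2 replicate 3 (-0.59) was left out. Uhrf1, which carries DNA methylation through replication, read 2456, 3153 and 2904 against 2181, 3054 and 3001 (-0.06, interval -0.43 to 0.32).

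For the 27 members without a call the measurements set bounds on what could have gone unseen. The 95% interval of the difference lay within 1 log2 unit on either side of 0, which is a 2-fold change, for 23 of them, and within 0.5 for 12. Of the 23 members with several probe sets above the signal filter, 19 had differences of 1 sign on all of them, among them all 5 called members with several. Dut, Pold1, Rfc4 and Slbp had mixed signs.

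The replication machinery has many further parts, and 7 related lists were examined in the same fit. In the 6 lists other than mitosis, 10 of 101 tested genes were higher (9.9%) and 6 lower (5.94%), against 12.3% and 14.9% of all tested genes, with a median difference of 0.05, and 21 and 13 with the block. Origin licensing and firing genes had 2 of 18 higher, Orc5 (0.90), a subunit of the origin recognition complex, and Dbf4 (0.66), the activator of the kinase that fires origins, and 0 lower (limma, 0 at an unadjusted p below 0.05), with 4 higher and 1 lower under the block. Orc5 went from 1262, 1167 and 1093 to 2258, 2265 and 2189, and no array of one group came near the other. Both calls were kept under all 17 alternatives.

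Among 17 further polymerase, clamp loader and RPA genes, Dscc1 (-0.80), part of a clamp loader used in sister chromatid cohesion, and Rpa1 (-0.49), the large subunit of the single-strand binding protein, were lower, and 0 were higher in the limma fit (1 at an unadjusted p below 0.05, and 1 higher and 3 lower with the block). Neither was called when parental replicate 2 (-0.82 and -0.43) or 3 (-0.69 and -0.50) was left out. Rpa1 fell from 11100, 13074 and 11928 to 7398, 9216 and 9054, while Rpa2 of the same complex was not called. Fork protection and checkpoint genes had Hus1 (0.83; 0.73 and not called without HML2 replicate 3) and Rad1 (0.64) higher, both subunits of a checkpoint clamp, and the fork protection gene Donson (-0.997) lower, among 14. Rad1 was not called without parental replicate 1 (0.62), 2 (0.67) or 3 (0.62). Chromatin replication genes had 0 calls among 12 in either direction in the limma fit (2 higher and 2 lower at an unadjusted p below 0.05), and 3 higher and 2 lower with the block. Rbbp4 (-0.21, adjusted p = 0.092, and 0.026 with the block) and Rbbp7 (0.01), which encode histone-binding proteins, were the brightest of them. Of these 3 lists 11.8%, 21.4% and 0% were called without the block, in the order given, against 27.2% of all tested genes.

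Further nucleotide supply genes had 3 higher and 1 lower among 15 (5 higher and 1 lower with the block). That was 26.7% of the list, against 27.2% of all tested genes called. With the block it was 40% against 37.4%. The median of the list, 0.35, was the highest of the 7 lists. Rrm2b (1.09), the alternative small subunit of ribonucleotide reductase that is known as a p53 target, Ctps (0.84), which makes CTP, and Cad (0.42), the entry enzyme of pyrimidine synthesis, were higher, and the thymidylate kinase gene Dtymk (-0.65) was lower. Rrm2b was at 245 to 256 in parental cells and at 1077, 357 and 516 in HML2 replicates 1 to 3. The difference was 0.68 without HML2 replicate 1, and Rrm2b was not called without any one parental array (1.08, 1.10 and 1.09 without replicates 1 to 3) or HML2 replicate 3 (1.18). Cad missed the threshold with parental replicate 1 (0.32) or 3 (0.41) left out, and with HML2 replicate 2 (0.44) or 3 (0.37) left out. Tk1 and Dtymk encode consecutive enzymes on the salvage route from thymidine to dTTP, and both genes were lower.

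Control genes of G1 and S phase had 3 higher and 2 lower among 25, and 5 and 5 with the block. That was 20% of the list, against 27.2% of all tested genes called, and 40% against 37.4% with the block. Cdk6 (1.41), a kinase that frees E2F factors from retinoblastoma proteins, went from 1583, 1575 and 1527 to 4086, 4084 and 4518. Cdkn2c (-1.02), an inhibitor of that kinase, went from 5622, 4278 and 4665 to 2206, 2628 and 2265, and Tfdp2 (-1.68), a dimer partner of E2F factors, from 882 to 1038 down to 235 to 328, and with its probe sets averaged the difference of Tfdp2 was -0.91. E2f8 (0.54), a repressive E2F factor named here after its value was seen, was the remaining higher gene besides Cdkn1a, and it was not called when parental replicate 3 (0.48) or HML2 replicate 3 (0.50) was left out.

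Cdkn1a (1.34), the p53-induced inhibitor of cyclin-dependent kinases, read 182 to 235 in parental cells and 1341, 399 and 412 in HML2 replicates 1 to 3. It was thus highest on the HML2 array on which 29 of 36 replication genes had their lowest value of the group, as was Rrm2b. In the parental group Cdkn1a read 235, 217 and 182, also highest on replicate 1, whereas Rrm2b read 245, 256 and 249, lowest on replicate 1. The part of either gene in the low replicate 1 values was not tested. Without HML2 replicate 1 the difference of Cdkn1a was 0.81 and still called, whereas Cdkn1a was not called without parental replicate 1 (1.41), 2 (1.36) or 3 (1.26).

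Mitosis genes are expressed after replication in the same cycling cells. They had 4 higher and 0 lower among 27 in the limma fit (6 and 1 at an unadjusted p below 0.05), with a median of 0.07. The higher ones were 14.8% of the list, and of all tested genes 12.3% were higher and 14.9% lower. With the block 8 were higher and 1 lower, which was 33.3% of the list against 37.4% of all tested genes. The kinetochore gene Cenpe (0.68), the spindle checkpoint genes Mad2l1 (0.59) and Bub1 (0.49) and the centromeric histone gene Cenpa (0.51) were the called genes. Mad2l1 read 5027, 5311 and 5932 against 6983, 8607 and 9080.2, and it stayed called under all alternatives. Cenpe and Cenpa were not called when parental replicate 1 (0.60 and 0.44) or 3 (0.66 and 0.48) or HML2 replicate 2 (0.61 and 0.46) or 3 (0.56 and 0.48) was left out. The difference of Bub1 was 0.0028 when its probe sets were averaged, and Bub1 was not called without any one array but HML2 replicate 1 (0.34, 0.57 and 0.56 without parental replicates 1 to 3, 0.44 and 0.45 without HML2 replicates 2 and 3). On replicate 1 the mitosis genes were low as well, with medians of -0.18 and -0.37 relative to the mean of the parental and of the HML2 group. The difference between the replication and the mitosis genes was not tested.

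**Figure D4:**
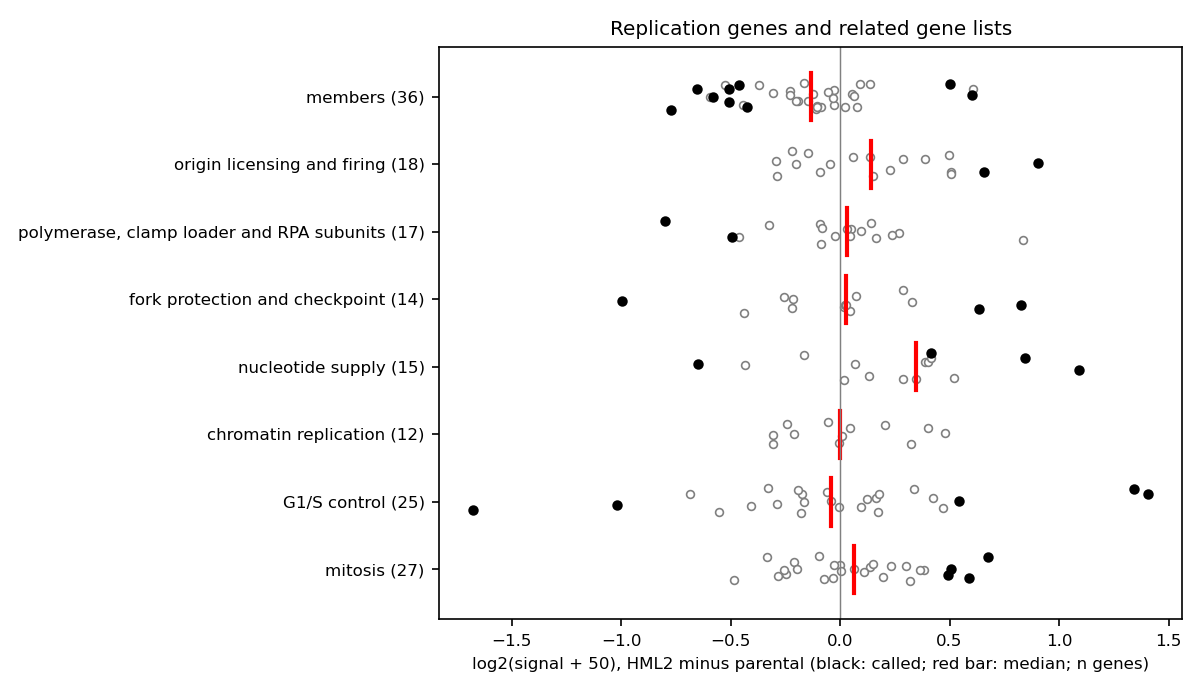
Difference between HML2 and parental cells on the log2(signal + 50) scale for the tested genes of each list, with black points for called genes, open points for others and a red bar at the median. The replication genes have a median of -0.13, the further nucleotide supply genes 0.35 and the mitosis genes 0.07.

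The position of the genes on chromosomes was not used in choosing them. Of the 7 lower members, Cdc45, Chaf1b and Mcm4 lie on chromosome 16, as does Rfc4 (0.05), which was not called. On chromosome 16, 40.6% of the 298 other tested genes were lower in HML2 cells and 1.68% higher, with a median of -0.41, against 14.9% lower over all chromosomes. Among up to 10 tested genes on either side, 12 of the 20 neighbours of Chaf1b were lower (median -0.54), 8 of those of Cdc45 (-0.38), 6 of those of Mcm4 (-0.26) and 7 of those of Rfc4 (-0.47). The genes directly beside Mcm4, Ube2v2 (0.20) and Prkdc (-0.04), had smaller differences than Mcm4 itself.

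Mcm3 and Mcm6 lie on chromosome 1, where 34.9% of 519 other genes were lower (median -0.31). Mcm3 and Mcm6 themselves differed by -0.44 and -0.37. Pola1 is on chromosome X, with 9 of 20 neighbours lower. In contrast, Gins2, Ccne1 and Tk1 had 3, 1 and 1 lower genes among 20 neighbours. Gins2, Gins3 and Cdt1, with calls in opposite directions, all lie on chromosome 8, where the other genes had a median of 0.02. Gins3 and Cdt1 had 7 and 5 higher genes among their neighbours, and Gins2 had 6 although it was itself lower. The part of chromosomal position in the members' differences was not tested.

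**Figure D5:**
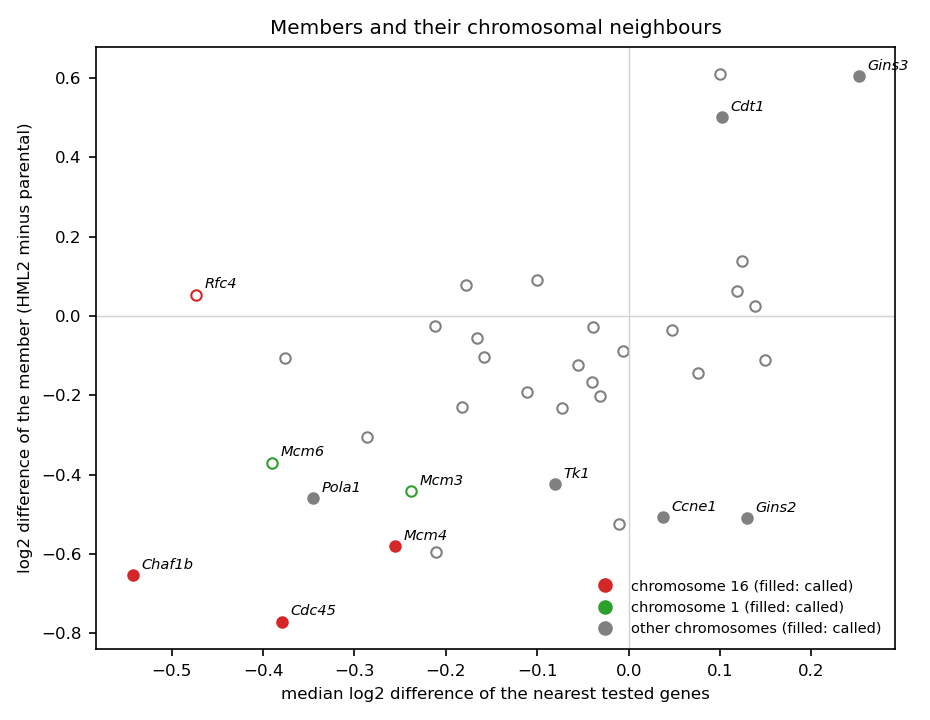
Each point is 1 of 36 DNA replication genes: the vertical axis gives its log2 difference between HML2 and parental cells and the horizontal axis the median log2 difference of up to 20 nearest tested genes on its chromosome, other members left out. Cdc45, Chaf1b and Mcm4 on chromosome 16 (red, filled) lie at negative values on both axes, whereas Rfc4 (red, open) is near 0 beside lowered neighbours, and Gins2 and Ccne1 are low beside neighbours with medians above 0.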

How the data were processed

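Per the submitters' processing notes, the deposited values are MAS5 intensities, linear and 1 per probe set and array. Its version and its settings: not given in the sources used here. A trimmed mean of the table, 2% left out at either end, was 500 for each array, so differences in total messenger RNA are not kept. Of 45101 probe sets (64 controls), the 2016 array annotation gave 1 symbol for 34958, several for 932 and none for 9160 others. Symbols were updated through RefSeq (GRCm38.p6), where 34754 matched.

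Signals were converted to log2(signal + 50), which understates changes of low signals. A mean signal of 100 was the minimum for a probe set, and the brightest stood for each gene. The fit used limma 3.58.1 (R 4.3.3; lmFit, then eBayes with an intensity trend) without covariates, with Benjamini-Hochberg adjustment over 9362 genes and calls below 0.05, after tests on simulated data. Replicate numbers come from the labels, which do not say what they mark. All same-number correlations exceeded 0.1, so the block is given beside results it changes. HML2 replicate 3 correlated with parental replicate 2 at 0.24 as well.

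Members and lists were chosen with earlier results of these data known. Values per array were given for members called with or without the block (at most 15) and the brightest member of each role group. From each related list up to 4 called genes with the largest differences were named, filled up to 2 by the brightest, and from cell type lists the brightest. Alternatives were other offsets, filters, scalings, array weights, variance model, probe set averaging, the block and leaving out arrays.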

Additional observations from a re-analysis of the deposited data

How the results depend on the processing

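Of 153 values of the 9 called members over 17 alternatives, 112 kept direction and call, 41 kept the direction but not the call, and 0 changed sign. Leaving out 1 array at a time gave 590 to 1577 genes called higher, 795 to 1845 genes called lower, 1 to 3 members called higher, 0 to 7 members called lower and a median member difference of -0.25 to 0.01, the last without HML2 replicate 1 (0.015), where its sign turned. Without the signal filter, 1 member was called higher and 4 lower, which was 13.9% of the members beside 11.9% of all genes. Median centring left 4 members lower and changed the calls over all genes from 12.3% higher and 14.9% lower to 14.6% and 12.5%. The replicate block gave 12 members lower, with 19.6% of all tested genes lower. Array weights gave 11 members lower, with 2422 genes called higher and 2631 genes called lower, and a median member difference of -0.0015. Leaving out both replicate 1 arrays, chosen after seeing the data, gave 11 members lower, with 19.7% of all tested genes lower. The other changes of sign concern genes called neither with nor without the block, except Mcm5, which was lower with the block. They were Pole (0.017), Prim1 (-0.0067) and Rbbp7 (-0.050) with quantile normalization, Mcm2 (0.035), Pold1 (0.027), Pole (0.034) and Uhrf1 (0.0059) with median centring, and Pold1 (0.032), Dut (-0.23) and Rbbp7 (-0.037) with probe sets averaged. With array weights they were Mcm2 (0.083), Cdc6 (0.27), Rfc2 (0.034), Rfc3 (0.0019), Rpa2 (0.064), Pole (0.11), Rrm1 (0.030), Ccne2 (0.0013), Uhrf1 (0.049) and Rbbp7 (-0.0082). Without both replicate 1 arrays they were Mcm2 (0.092), Cdc6 (0.23), Rfc2 (0.026), Rfc4 (-0.070), Rpa2 (0.098), Pole (0.059), Prim1 (-0.0063), Slbp (0.0091) and Uhrf1 (0.00072). Leaving out single arrays turned the sign of Rfc5 (-0.045 to 0.19), Pole (-0.10 to 0.031), Prim1 (-0.091 to 0.11), Rbbp7 (-0.028 to 0.054), Mcm2 (-0.15 to 0.12), Cdc6 (-0.46 to 0.45), Pold1 (-0.093 to 0.078), Rrm1 (-0.21 to 0.060), Uhrf1 (-0.15 to 0.099), Mcm5 (-0.43 to 0.054), Rfc2 (-0.23 to 0.023), Rfc3 (-0.19 to 0.0066), Rfc4 (-0.039 to 0.15), Rpa2 (-0.37 to 0.21), Ccne2 (-0.43 to 0.14) and Slbp (-0.44 to 0.11). The causes were not tested, except that a fit on fewer arrays has fewer degrees of freedom by construction. The number of arrays limits the precision.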
